A study of Mus musculus with 10 samples.

Results

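The Achilles tendon of mice with a conditional Mkx knockout (Mkx-CreER/flox) was compared with that of mice carrying a floxed Mkx allele without Cre (Mkx flox/+), over all genes measured. These 2 genotypes were taken from the labels and make up 7 of the 10 libraries of the series, 3 of them knockout and 4 control. The remaining 3 libraries (Mkx-CreER/+) entered only an alternative fit. Mice of both genotypes received tamoxifen at 20 mg/kg at 6 weeks of age, and tendons were taken 4 weeks later. RNA was sequenced by RamDA-seq, which reads total RNA from small amounts, so each value rests on read counts per gene.

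The knockout carries 1 allele in which the Mkx gene drives CreER, a Cre recombinase that tamoxifen activates, and 1 allele with loxP sites. Recombination is thus limited to cells in which the Mkx-CreER allele is active, and cells of the tendon without that activity keep their floxed allele. The control lacks CreER, so an effect of the CreER allele or of Cre and an effect of the recombined floxed allele cannot be told apart in this comparison. The genotype label of the control reads Mkx flox/+ and the series text shortens it to Mkx-flox. The floxed exons, and whether the CreER insertion itself inactivates Mkx, were not given in the sources used here. Nothing in the labels says in words that each library is 1 mouse, so p-values measure the spread between these samples. Libraries carry the numbers of the count table, knockout 1, 4 and 5 and control 1 to 4, and per-library values are always given in that order.

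Mkx encodes Mohawk, a homeodomain transcription factor of the tendon and ligament lineage. Tendon is built mainly of type I collagen fibrils, which fibroblasts called tenocytes assemble with small leucine-rich proteoglycans, cross-linking enzymes and glycoproteins. Mice without Mkx are known for thin tendons with reduced type I collagen, and Mkx is also known to restrain cartilage and bone programmes in tendon cells. A whole tendon further holds endothelial and mural cells, nerve, macrophages and a loose sheath, the paratenon, and the Achilles tendon joins the calf muscles.

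Depth lay between 8680934 and 18713250 counts per library, at which 3 counts are worth 0.145 to 0.354 CPM (counts scaled to library size, with TMM normalisation). Such limits cover counting error only. Type I collagen, Fmod, Tnmd and Mkx were measured in all 7 libraries, as a tendon should have them, and skeletal muscle transcripts were present as well. Skeletal muscle markers (32 genes) took 13.3, 9.42 and 8.33% against 1.87, 2.14, 5.38 and 5.73% of the counts. The 8 mitochondrially encoded genes tested, with the 5 others of that list, took 8.85, 5.32 and 3.96% against 2.31, 1.92, 1.98 and 2.06%. Both shares were higher in every knockout library than in any control, and knockout 1 had the highest of each. Knockout 1 also lay farthest out on the first principal component, which held 39.2% of the variance, at -82.4 against -32.5 and -18.4 for knockout 4 and 5 and 17.6 to 42.5 for the controls. The part that muscle in the samples has in the other results was not tested. Groups of genes are therefore also given from a fit with the muscle list's mean log2 CPM per library as a covariate. It is here called the muscle-adjusted fit. That score itself differed between the genotypes on average, at 10.45, 9.33 and 9.58 against 7.53, 7.78, 8.68 and 9.44. Unlike the share of counts it overlapped, with control 4 above knockout 4.

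The targeted gene separated the genotypes. Mkx (ENSMUSG00000061013, chromosome 18, 6934518 to 7004780, minus strand, mm10) measured 25.7, 31.9 and 30.1 CPM against 184, 175, 119 and 151 CPM. The 3 knockout libraries lay close together and far below the lowest control, control 3. Means were 29.3 ± 3.19 CPM (SD, n = 3) and 157 ± 29.1 CPM (n = 4), so 18.6% of the control level remained (log2 fold change -2.42, SE 0.205, edgeR adjusted p = 0.001299). A two-sided exact permutation test over the 35 ways to choose 3 of 7 libraries gave p = 0.0286, the smallest it can give. The log2 fold change stayed between -2.53 and -2.34 with any 1 library left out, and was -2.12 in the muscle-adjusted fit (edgeR adjusted p = 0.0281). Reads were counted over the whole gene, so transcripts that lack the floxed exons may count here too.

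Of 15456 genes tested, 901 differed between the genotypes at an edgeR adjusted p under 0.05 (Benjamini-Hochberg), which is 5.83% of all genes. Among them 534 were higher in the knockout (3.45% of all genes) and 367 were lower (2.37%). A change of at least 2-fold was seen in 447 of the former and 244 of the latter. The median log2 fold change over all genes tested was 0.01. The knockout libraries lay on 1 side of all controls in 882 of the 901 called genes, and they did so in 20.0% of all genes tested (10.3% above and 9.71% below). Left out one at a time, knockout 4, control 1, control 2 and control 3 brought the number of called genes to 219, 217, 294 and 238, whereas 948, 1269 and 773 were called without knockout 1, knockout 5 and control 4. In the muscle-adjusted fit 14 genes were called. Every one of the 901 kept its direction in each omission, and 144 were called in all 7.

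**Figure D1:**
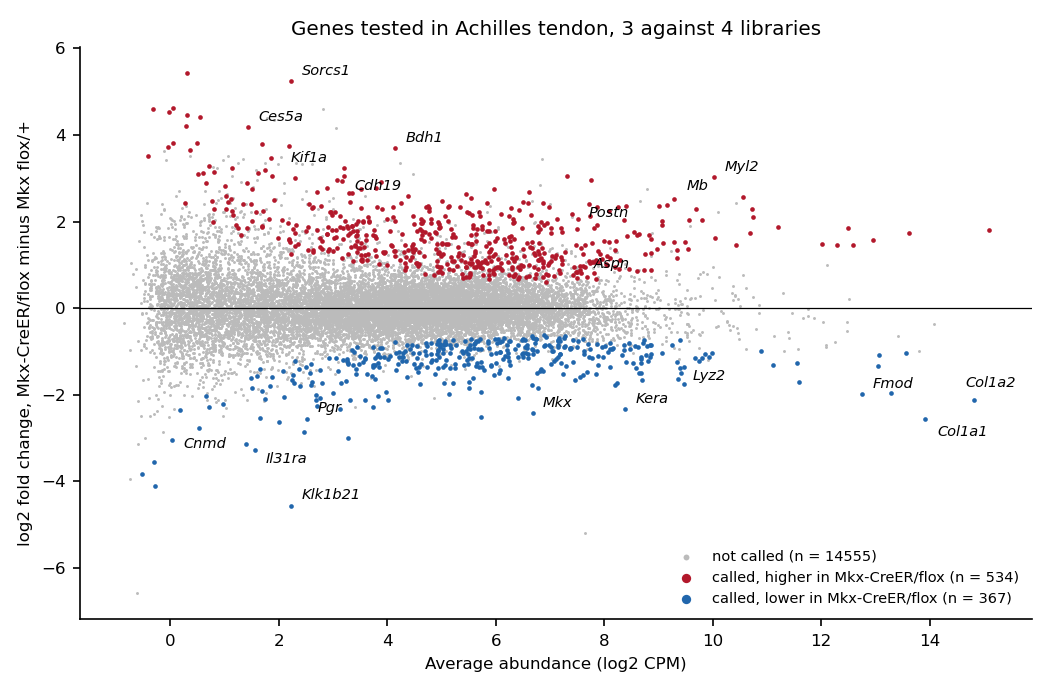
Each point is 1 of 15456 genes, with its average abundance (log2 CPM) on the horizontal axis and its log2 fold change, knockout minus control, on the vertical axis. The 534 called rises are red and the 367 called falls blue, and type I collagen genes lie at the far right among the falls.

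Both chains of type I collagen and 4 other collagen genes fell in the knockout. They belong to a list of fibrillar and fibril-associated collagens that also holds chains of the beaded-filament collagen VI. Of the 15 fibrillar and fibril-associated collagen genes tested, 6 were called lower and 0 higher, against 2.37% of all genes called lower. Their median log2 fold change was -0.86, and 14 of the 15 values were negative. Together the 15 genes took 2.10% ± 0.194 (SD, n = 3) of the counts in the knockout and 7.59% ± 2.64 (n = 4) in the control. In bulk tissue, fewer cells of a type and less RNA per cell cannot be told apart, here and in all results that follow.

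Col1a1, which encodes the alpha-1 chain of type I collagen (chromosome 11, 94936224 to 94953042, plus strand, mm10), measured 3008, 4243 and 4833 CPM against 24750.1, 23234, 10452 and 37198 CPM. Its partner Col1a2, the alpha-2 chain, measured 11872, 8532 and 9019 CPM against 47749, 38332, 23336 and 61604 CPM. In both genes control 3 was the lowest control and control 4 the highest, and even control 3 lay above all knockouts. Col1a1 fell by 2.57 in log2 terms (SE 0.427, edgeR adjusted p = 0.0104) and Col1a2 by 2.12 (SE 0.378, adjusted p = 0.0127). Col11a2, a chain of the collagen XI that helps to start fibrils, stood at 6.41, 15.8 and 20.4 CPM against 65.8, 85.6, 64.6 and 110.2 CPM (log2 fold change -2.51, SE 0.358, edgeR adjusted p = 0.006302). Col16a1, a collagen that sits on the fibril surface, stood at 15.5, 15.6 and 28.1 CPM against 57.5, 65.1, 53.9 and 80.4 CPM (log2 fold change -1.702, SE 0.259, edgeR adjusted p = 0.00775). In both of these the knockout and control libraries lay far apart. The fibril-surface collagen Col12a1 (-1.001, adjusted p = 0.0334) and the beaded-filament chain Col6a1 (-1.14, adjusted p = 0.03803) fell by less. With 1 library left out, edgeR calls ended without knockout 1 for Col6a1 (adjusted p = 0.0549) and without knockout 4 for Col1a2, Col12a1 and Col6a1 (adjusted p from 0.0535 to 0.122). Among controls, omissions ended calls without control 1 for Col1a2, Col12a1 and Col6a1 (adjusted p from 0.0524 to 0.105), without control 2 for Col6a1 (adjusted p = 0.0788), without control 3 for Col12a1 and Col6a1 (adjusted p from 0.0647 to 0.08902) and without control 4 for Col12a1 and Col6a1 (adjusted p from 0.0686 to 0.0805).

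Type III collagen, the other main fibril former of the list, was not called. Col3a1 measured 3304, 2910.4 and 2719.8 CPM against 4005, 2521, 2132 and 5173 CPM, with knockout and control values interleaved (log2 fold change -0.22, SE 0.314, edgeR adjusted p = 0.7503). The type V chains Col5a1, Col5a2 and Col5a3 had log2 fold changes of -0.23, -0.16 and -0.12 and were not called. Over the 7 omissions 3 to 7 of the 15 genes were called lower, and in the muscle-adjusted fit 0 were, at a median log2 fold change of -0.86.

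**Figure D2:**
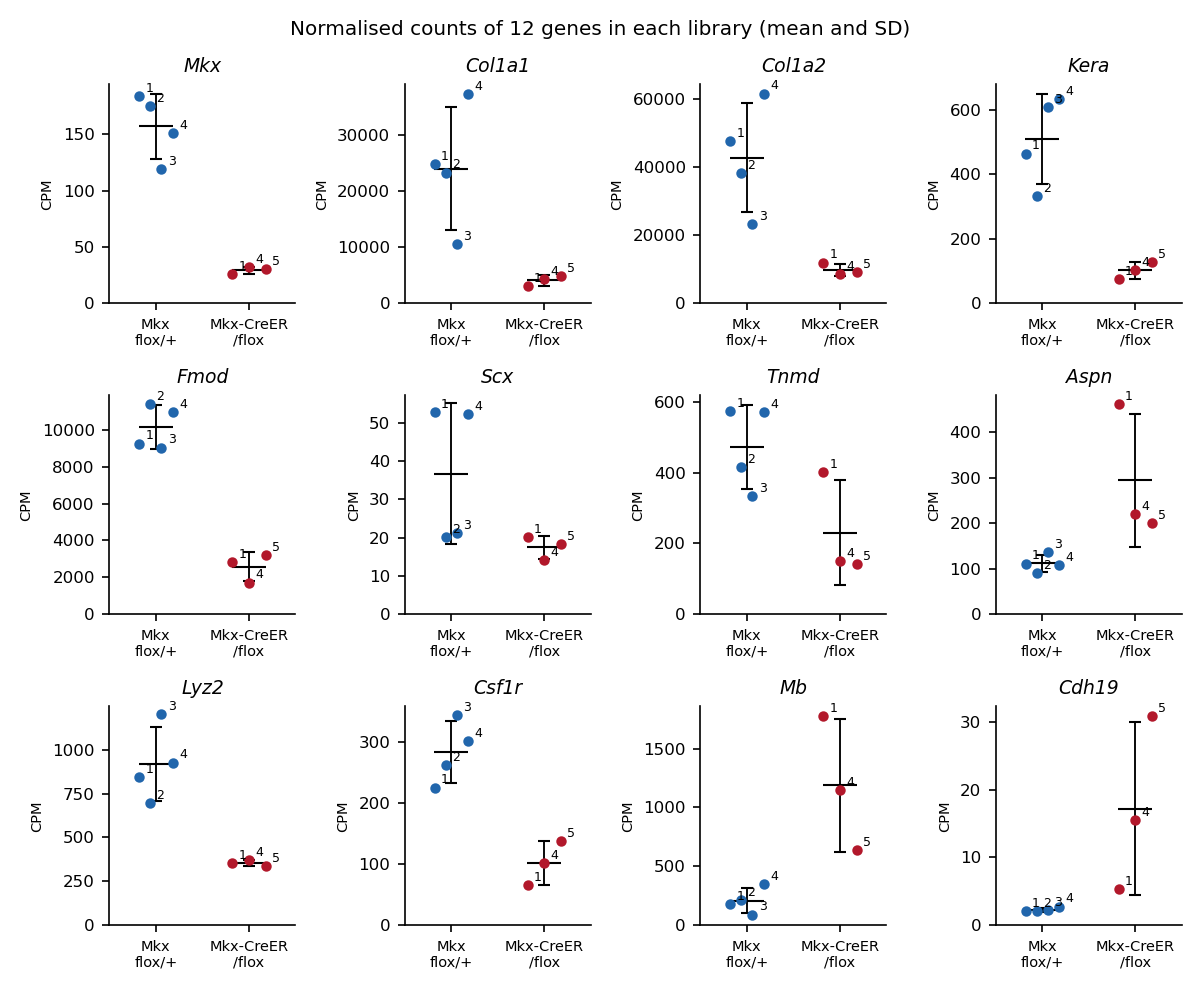
Normalised counts (CPM, linear axis from 0) of 12 genes in each library, with library numbers beside the points and the mean and SD as black bars. Knockout libraries (red) lie below all controls (blue) for Mkx, Col1a1, Col1a2, Kera, Fmod, Scx, Lyz2 and Csf1r and above them for Aspn, Mb and Cdh19, while the groups overlap for Tnmd.

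Promoter sequences are shown for Col1a2, Kera and Fmod, 3 of the matrix genes that fell together and the ones for which the RefSeq promoter table (GRCm38.p6) was used. Each window runs from 250 bases before the start annotated in RefSeq to 50 bases after it and is printed 5′ to 3′ on the gene's strand. For Kera the RefSeq start lies downstream of the start of the GENCODE span given below. The whole Kera window therefore falls inside that gene span and may hold transcribed sequence. Capitals mark CCAAT (or its reverse complement ATTGG) and GGGCGG (or CCGCCC), general promoter elements.
Col1a2, chr6:4505368-4505667, plus strand: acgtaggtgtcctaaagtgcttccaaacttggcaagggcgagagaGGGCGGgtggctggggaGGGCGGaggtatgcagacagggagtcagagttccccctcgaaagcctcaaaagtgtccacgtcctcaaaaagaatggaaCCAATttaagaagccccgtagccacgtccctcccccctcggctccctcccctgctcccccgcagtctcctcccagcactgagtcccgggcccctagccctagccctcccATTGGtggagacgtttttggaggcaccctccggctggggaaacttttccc
Kera, chr10:97606955-97607254, plus strand: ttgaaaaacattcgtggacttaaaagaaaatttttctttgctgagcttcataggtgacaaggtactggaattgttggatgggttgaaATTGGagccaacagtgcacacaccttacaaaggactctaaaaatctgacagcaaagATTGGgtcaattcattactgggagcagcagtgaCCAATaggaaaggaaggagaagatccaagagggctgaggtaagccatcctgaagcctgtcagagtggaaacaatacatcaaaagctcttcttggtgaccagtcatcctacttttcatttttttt
Fmod, chr1:134037004-134037303, plus strand: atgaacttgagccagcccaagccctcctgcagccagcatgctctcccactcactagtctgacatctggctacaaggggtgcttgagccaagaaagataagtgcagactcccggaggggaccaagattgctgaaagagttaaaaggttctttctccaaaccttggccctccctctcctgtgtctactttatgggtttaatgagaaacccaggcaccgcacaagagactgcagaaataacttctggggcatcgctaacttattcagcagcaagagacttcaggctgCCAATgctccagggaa
CCAAT occurred 2 times in the Col1a2 window, 3 times in the Kera window and 1 time in the Fmod window, on either strand. It is found in 37.4% of 32851 promoter windows of the same length. GGGCGG occurred 2 times in the Col1a2 window only, and 35.7% of all windows hold it. TATAAA, held by 13.6% of windows on either strand, was not among the letters of these 3. A match is a description of the sequence, and no binding was measured.

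Some of the genes that make, modify and fold procollagen in the endoplasmic reticulum fell too. Of 22 tested, 8 were called lower and 1 higher, against 2.37% and 3.45% of all genes. The median log2 fold change was -0.68. Creb3l1, a membrane-bound transcription factor known to activate type I collagen genes, measured 46.8, 51.7 and 78.3 CPM against 208, 156, 127 and 152 CPM (log2 fold change -1.45, SE 0.235, edgeR adjusted p = 0.00979). Crtap, a subunit of the prolyl 3-hydroxylase complex, measured 73.7, 66.4 and 89.4 CPM against 182, 144, 163 and 220.3 CPM (log2 fold change -1.21, SE 0.197, edgeR adjusted p = 0.00979). P4ha1, a catalytic subunit of collagen prolyl 4-hydroxylase, measured 219, 181 and 189 CPM against 749, 294, 452 and 726 CPM (log2 fold change -1.501, SE 0.308, edgeR adjusted p = 0.0201). All 3 genes separated the genotypes, P4ha1 with the widest spread among controls. The lysyl hydroxylases Plod1 (-0.999) and Plod3 (-0.84), the prolyl 3-hydroxylase family members P3h3 (-1.26) and P3h4 (-0.95) and the collagen chaperone Fkbp10 (-0.999) fell as well (log2 fold changes). Serpinh1, the collagen chaperone HSP47, was not called (log2 fold change -0.68, SE 0.279, edgeR adjusted p = 0.183). The 1 member that rose was Tmem38b, a cation channel of the endoplasmic reticulum, at 95.1, 70.02 and 51.8 CPM against 33.7, 27.9, 32.2 and 43.6 CPM (log2 fold change 1.07, SE 0.231, edgeR adjusted p = 0.0234). Calls by edgeR were lost without knockout 1 for P3h3 (adjusted p = 0.0659) and without knockout 4 for P4ha1, Plod1, Plod3, P3h3, P3h4, Fkbp10 and Tmem38b (adjusted p from 0.0785 to 0.152). On the control side, calls went without control 1 for P4ha1, Plod1, Plod3, P3h3, P3h4, Fkbp10 and Tmem38b (adjusted p from 0.0652 to 0.113), without control 2 for Plod1, Plod3, P3h3, P3h4, Fkbp10 and Tmem38b (adjusted p from 0.0607 to 0.109), without control 3 for P4ha1, Plod3, P3h3, P3h4, Fkbp10 and Tmem38b (adjusted p from 0.05105 to 0.109) and without control 4 for Plod1, Plod3, P3h3, P3h4 and Fkbp10 (adjusted p from 0.0592 to 0.109). Over the omissions 2 to 8 members were called lower, and in the muscle-adjusted fit 0 were called (median -0.82).

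Enzymes that trim procollagen and cross-link fibrils outside the cell fell in 6 of 13 members tested, against 2.37% of all genes called lower. In this list 0 were called higher, and the median log2 fold change was -0.88. Adamts2, which removes the amino-terminal propeptide of procollagen, measured 262, 298 and 338 CPM against 1091, 909, 696 and 1011 CPM (log2 fold change -1.63, SE 0.224, edgeR adjusted p = 0.005501). Pcolce, which speeds removal of the carboxy-terminal propeptide, measured 219.7, 309.9 and 367 CPM against 942, 656, 1056 and 1397 CPM (log2 fold change -1.76, SE 0.289, edgeR adjusted p = 0.00998). For these 2 genes all knockouts lay below all controls, and both were called in each of the 7 omissions. The lysyl oxidase-like cross-linking enzymes Loxl2 (log2 fold change -1.53, SE 0.346, edgeR adjusted p = 0.026996) and Loxl4 (log2 fold change -1.28, SE 0.282, edgeR adjusted p = 0.02496) fell by similar amounts. Loxl2 stood at 116, 103 and 113 CPM against 351, 197, 186 and 547 CPM and varied widely among controls. Lox itself was not called (log2 fold change -0.94, SE 0.342, edgeR adjusted p = 0.129). Omission of 1 library ended edgeR calls without knockout 1 for Loxl2 (adjusted p = 0.121), without knockout 4 for Loxl2 and Loxl4 (adjusted p = 0.102) and without knockout 5 for Loxl2 (adjusted p = 0.057004). Control omissions ended calls without control 1 for Loxl2 and Loxl4 (adjusted p from 0.0587 to 0.0779), without control 2 for Loxl4 (adjusted p = 0.06499) and without control 4 for Loxl4 (adjusted p = 0.050997). The test with 1 library fewer also called Lox without knockout 1 (log2 fold change -1.49, adjusted p = 0.00686). Between 2 and 7 members were called lower over the omissions and 0 in the muscle-adjusted fit (median -0.82).

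The small leucine-rich proteoglycans, which coat collagen fibrils and set their diameter, split. Of 12 tested members, Kera, Fmod and Chad were called lower and Aspn higher, against 2.37% and 3.45% of all genes. Kera (chromosome 10, 97606879 to 97613692, plus strand, mm10), which encodes keratocan, measured 74.2, 103 and 127 CPM against 464, 332, 609 and 634 CPM (log2 fold change -2.33, SE 0.281, edgeR adjusted p = 0.003097). Fmod, which encodes fibromodulin, measured 2807, 1713 and 3225 CPM against 9269.8, 11397, 9046 and 10972 CPM (log2 fold change -1.98, SE 0.296, edgeR adjusted p = 0.00744). In both genes the highest knockout, knockout 5, stood well under the lowest control. Kera was also called in the muscle-adjusted fit (log2 fold change -2.55, edgeR adjusted p = 0.0425), and Fmod was not (-2.13, adjusted p = 0.111). Chad, which encodes the cell-binding protein chondroadherin, measured 4656, 4384 and 6652 CPM against 9649, 10961, 12749 and 10817 CPM (log2 fold change -1.08, SE 0.269, edgeR adjusted p = 0.0388). The edgeR call did not hold without knockout 4 for Chad (adjusted p = 0.129). Omission of a control ended calls without control 1 for Chad and Aspn (adjusted p from 0.06499 to 0.0966), without control 2 for Chad and Aspn (adjusted p from 0.0631 to 0.08604), without control 3 for Chad and Aspn (adjusted p from 0.0505 to 0.115) and without control 4 for Chad (adjusted p = 0.0647).

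Aspn encodes asporin, a proteoglycan that binds collagen and TGF-beta, and it moved the other way at 462, 219.99 and 200.01 CPM against 111, 89.8, 137 and 108 CPM (log2 fold change 1.397, SE 0.27998, edgeR adjusted p = 0.0195). All 3 knockouts lay above all controls, but knockout 1 stood far above the other 2, and without it the log2 fold change was 0.91. Dcn, which encodes decorin, measured 13458, 6531 and 7473 CPM against 17679.8, 16556, 21791 and 16181 CPM, below all controls in each knockout but not past the threshold (log2 fold change -0.98, SE 0.319, edgeR adjusted p = 0.0957). Bgn, the related biglycan, had a log2 fold change of -0.898 (adjusted p = 0.0557), and Lum, lumican, one of -0.08 (adjusted p = 0.908). The threshold was reached by Dcn without knockout 1 (log2 fold change -1.37, adjusted p = 0.0124) and Bgn without knockout 1 (log2 fold change -0.94, adjusted p = 0.0479) and without knockout 5 (log2 fold change -1.04, adjusted p = 0.0479).

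Among 28 other glycoproteins and fibre components of tendon matrix, 11 were called lower and 1 higher, against 2.37% and 3.45% of all genes. The median log2 fold change was -0.86. Matn2, a matrilin that links matrix filaments, measured 103, 129.7 and 136 CPM against 459.6, 409, 342 and 477 CPM (log2 fold change -1.78, SE 0.201, edgeR adjusted p = 0.003097). Coch, which encodes the secreted protein cochlin, measured 24.4, 38.3 and 27.4 CPM against 121, 109.8, 181 and 94.2 CPM (log2 fold change -2.07, SE 0.2604, edgeR adjusted p = 0.00373). Tgfbi, a TGF-beta-induced protein that binds collagen, measured 311, 306 and 377 CPM against 1021, 836, 972 and 935 CPM (log2 fold change -1.504, SE 0.198, edgeR adjusted p = 0.00436). These 3 were called in every omission, with no overlap of the genotypes. Sparc, a collagen-binding glycoprotein, followed type I collagen in its order among controls, with control 3 lowest and control 4 highest, at 3755, 3612 and 3995 CPM against 14630.4, 13082, 7851 and 22885 CPM (log2 fold change -1.95, SE 0.3603, edgeR adjusted p = 0.01505). Single omissions took away edgeR calls without knockout 4 for Sparc (adjusted p = 0.0603). Calls also ended without control 1 for Sparc (adjusted p = 0.0524).

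Thbs2, a thrombospondin (-1.32), Tnc, tenascin C (-1.26), Spon1, spondin 1 (-1.12), the microfibril protein Mfap4 (-1.32), Cilp2 (-1.17), Thbs3 (-0.998) and the lubricin gene Prg4 (-1.33) made up the rest of the falls, given as log2 fold changes. Postn, which encodes periostin, a matrix protein prominent in repair, was the 1 member called higher, at 329, 361 and 223 CPM against 97.1, 38.9, 64.7 and 144 CPM (log2 fold change 1.82, SE 0.368, edgeR adjusted p = 0.0213). Comp, a large pentameric glycoprotein of tendon and cartilage, had a log2 fold change of -0.101 (adjusted p = 0.915). In fits lacking 1 library, edgeR calls ended without knockout 1 for Cilp2 and Postn (adjusted p from 0.0687 to 0.1203), without knockout 4 for Thbs2, Tnc, Mfap4, Cilp2, Thbs3, Prg4 and Postn (adjusted p from 0.0687 to 0.148) and without knockout 5 for Prg4 (adjusted p = 0.0701). Calls were lost too without control 1 for Thbs2, Tnc, Spon1, Cilp2, Thbs3, Prg4 and Postn (adjusted p from 0.0524 to 0.1297), without control 2 for Thbs2, Cilp2, Thbs3 and Prg4 (adjusted p from 0.0525 to 0.0947) and without control 3 for Tnc, Spon1, Cilp2, Thbs3, Prg4 and Postn (adjusted p from 0.0509 to 0.114). The count called lower ran from 4 to 12 over the omissions, and in the muscle-adjusted fit 1 member, Mfap4, was called (median -0.801).

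Matrix-degrading enzymes and their inhibitors fell more often than they rose, with 6 of 23 tested called lower and 1 higher. Over all genes 2.37% were called lower and 3.45% higher. Adamts8, a secreted metalloproteinase, rose, at 51.7, 30.7 and 35.6 CPM against 9.77, 10.1, 5.601 and 10.7 CPM (log2 fold change 2.13, SE 0.273, edgeR adjusted p = 0.004098). Of its exons 10.6% overlap a gene on the opposite strand, and whether strand was used in counting was not given in the sources used here. Mmp23, a membrane-anchored metalloproteinase, fell, at 13.9, 19.2 and 21.1 CPM against 58.04, 53.7, 59.99 and 90.2 CPM (log2 fold change -1.85, SE 0.242, edgeR adjusted p = 0.00436). Htra1, a secreted serine protease that cleaves matrix proteins, fell from a control range of 545 to 627 CPM to 243, 126 and 188 CPM (log2 fold change -1.66, SE 0.237, edgeR adjusted p = 0.006302). The genotypes did not overlap for any of these genes. Ctsk, the collagen-cleaving cathepsin K (-1.34, adjusted p = 0.0115), Timp2, a metalloproteinase inhibitor (-1.27, adjusted p = 0.0173), and Mmp2, a gelatinase (-0.86, adjusted p = 0.0494), fell too. The collagenase gene Mmp13 and the gelatinase gene Mmp9 had too few counts to be tested. With 1 library left out, edgeR calls ended without knockout 1 for Mmp2 (adjusted p = 0.0772) and without knockout 4 for Ctsk, Timp2 and Mmp2 (adjusted p from 0.0551 to 0.156). Among controls, omissions ended calls without control 1 for Timp2 and Mmp2 (adjusted p from 0.0613 to 0.0796), without control 2 for Timp2 and Mmp2 (adjusted p from 0.0506 to 0.0989), without control 3 for Timp2 and Mmp2 (adjusted p from 0.0525 to 0.0941) and without control 4 for Mmp2 (adjusted p = 0.0991). In the muscle-adjusted fit Mmp23 alone of the list was called (log2 fold change -2.07, edgeR adjusted p = 0.0425).

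Regulators and markers of tenocytes did not all follow Mkx. Of 23 tested, 7 were called lower (Mkx, Kera, Wif1, Fmod, Cilp2, Chad and Angptl7) and 2 higher (Chodl and Eya1). Among the falls, Kera, Fmod, Chad, Cilp2 and Wif1 also stand on other lists given here. The shares over all genes were 2.37% lower and 3.45% higher. Scx, the bHLH transcription factor that marks tendon progenitors, measured 20.1, 14.1 and 18.2 CPM against 52.9, 20.2, 21.2 and 52.4 CPM. Control 2 and control 3 lay just above the highest knockout and control 1 and control 4 far above it, and Scx was not called (log2 fold change -1.07, SE 0.362, edgeR adjusted p = 0.107). Tnmd, which encodes tenomodulin, a membrane protein of mature tenocytes, measured 402, 150.1 and 141 CPM against 575, 417, 335 and 573 CPM (log2 fold change -1.04, SE 0.365, edgeR adjusted p = 0.119). Knockout 1 lay within the control range and knockout 4 and 5 below it. Chodl, which encodes the membrane lectin chondrolectin, rose at 169, 83.7 and 65.4 CPM against 14.3, 18.8, 19.4 and 26.8 CPM (log2 fold change 2.42, SE 0.318, edgeR adjusted p = 0.00436), with knockout 1 highest. Eya1, a developmental transcriptional co-activator, had a log2 fold change of 2.22 (edgeR adjusted p = 0.0237). The mechanosensitive factors Egr1 (0.52, adjusted p = 0.294) and Egr2 (1.04, adjusted p = 0.251) were not called. Over the omissions 4 to 9 of the 23 were called lower. Mkx and Kera were the list members called in the muscle-adjusted fit. Calls by edgeR were lost without knockout 4 for Angptl7 and Eya1 (adjusted p from 0.0619 to 0.1395) and without knockout 5 for Angptl7 (adjusted p = 0.0502). On the control side, calls went without control 1 for Angptl7 and Eya1 (adjusted p from 0.0723 to 0.104), without control 2 for Angptl7 and Eya1 (adjusted p from 0.0723 to 0.109), without control 3 for Angptl7 and Eya1 (adjusted p from 0.0654 to 0.121) and without control 4 for Angptl7 (adjusted p = 0.0596). In omissions, edgeR newly called Tnmd without knockout 1 (log2 fold change -1.71, adjusted p = 0.00314).

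Inhibitors in the Wnt pathway, a secreted signal that acts through frizzled receptors, moved in both directions. Of 22 genes of the pathway tested, Wif1, Dkk3 and Dkk2 were called lower and Frzb higher, against 2.37% and 3.45% of all genes. Wif1, a secreted protein that binds Wnt ligands, measured 110.4, 85.7 and 83.02 CPM against 305, 201, 239 and 347 CPM (log2 fold change -1.55, SE 0.226, edgeR adjusted p = 0.00665). Frzb, a secreted frizzled-like decoy, measured 83.7, 93.9 and 101 CPM against 48.4, 37.7, 21.6 and 23.5 CPM (log2 fold change 1.503, SE 0.265, edgeR adjusted p = 0.0123). Both separated the genotypes fully and were called in every omission, and Frzb was called in the muscle-adjusted fit too (log2 fold change 2.25, adjusted p = 0.0425). The dickkopf family members Dkk3 and Dkk2 stood at 120.1, 114 and 183 CPM against 285, 267, 239 and 281 CPM and at 48.1, 59.4 and 69.8 CPM against 154, 70.7, 105 and 155 CPM (log2 fold changes -0.95 and -1.03, adjusted p = 0.0234 and 0.0469). Of the ligands, Wnt2, Wnt5a, Wnt9a, Wnt10b and Wnt11 were not called, nor was the pathway target Axin2 (0.33, adjusted p = 0.679). Omission of 1 library ended edgeR calls without knockout 1 for Dkk2 (adjusted p = 0.119) and without knockout 4 for Dkk3 and Dkk2 (adjusted p from 0.0986 to 0.136). Control omissions ended calls without control 1 for Dkk3 and Dkk2 (adjusted p from 0.0724 to 0.125), without control 2 for Dkk3 (adjusted p = 0.06098), without control 3 for Dkk3 and Dkk2 (adjusted p from 0.0607 to 0.0916) and without control 4 for Dkk2 (adjusted p = 0.106).

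Of 26 genes of TGF-beta and BMP signalling, growth factor pathways that act through Smad proteins, 0 were called by edgeR (3 at an unadjusted p under 0.05, 1 called by DESeq2 and 3 by limma voom). The smallest p belonged to Ltbp1, a latent TGF-beta binding protein, at 113, 162 and 196 CPM against 299, 249, 235 and 357 CPM (log2 fold change -0.86, SE 0.2303, edgeR adjusted p = 0.0516). Its knockout libraries lay below all controls. The ligands Tgfb1, Tgfb2 and Tgfb3 had log2 fold changes of -0.07, -0.08 and -0.23, and the target Smad7 one of -0.08. A call appeared for Ltbp1 without knockout 5 (log2 fold change -1.05, adjusted p = 0.02602).

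Among genes of cartilage and bone 1 was called, against 5.83% of all genes. In cartilage, 1 of 11 tested members was called. This was Cnmd, which encodes chondromodulin, a relative of tenomodulin, and it fell, at 0.979, 0.339 and 0.146 CPM against 5.84, 6.04, 1.57 and 3.43 CPM (log2 fold change -3.14, SE 0.696, edgeR adjusted p = 0.0251). Knockout 4 and 5 hold values near that of 3 counts, so the size of the fold is loosely set. Sox9, the main cartilage transcription factor (0.502, adjusted p = 0.248), Col2a1 (0.43, adjusted p = 0.748) and Acan, aggrecan (-0.21, adjusted p = 0.713), were not called. In bone and mineralization 0 of 9 were called by edgeR (4 at an unadjusted p under 0.05, 1 called by DESeq2 and 2 by limma voom). Ibsp, which encodes bone sialoprotein, measured 225, 573 and 528 CPM against 165, 298, 142 and 115 CPM, high in knockout 4 and 5 and within the control range in knockout 1 (log2 fold change 1.29, SE 0.362, edgeR adjusted p = 0.0589). Alpl, tissue-nonspecific alkaline phosphatase, measured 5.25, 32.5 and 4.08 CPM against 3.45, 2.91, 1.904 and 3.43 CPM (log2 fold change 2.28, edgeR adjusted p = 0.0701). Its fold rests mainly on knockout 4, as knockout 1 and 5 lay just above the controls. Runx2 had a log2 fold change of 0.48 (adjusted p = 0.342). The edgeR call did not hold without knockout 4 for Cnmd (adjusted p = 0.0997). Omission of a control ended calls without control 1 for Cnmd (adjusted p = 0.0779) and without control 2 for Cnmd (adjusted p = 0.0728). Calls were gained for Ibsp without control 2 (log2 fold change 1.65, adjusted p = 0.0441) and without knockout 1 (log2 fold change 1.61, adjusted p = 0.0221) and Alpl without knockout 5 (log2 fold change 2.72, adjusted p = 0.0182).

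**Figure D3:**
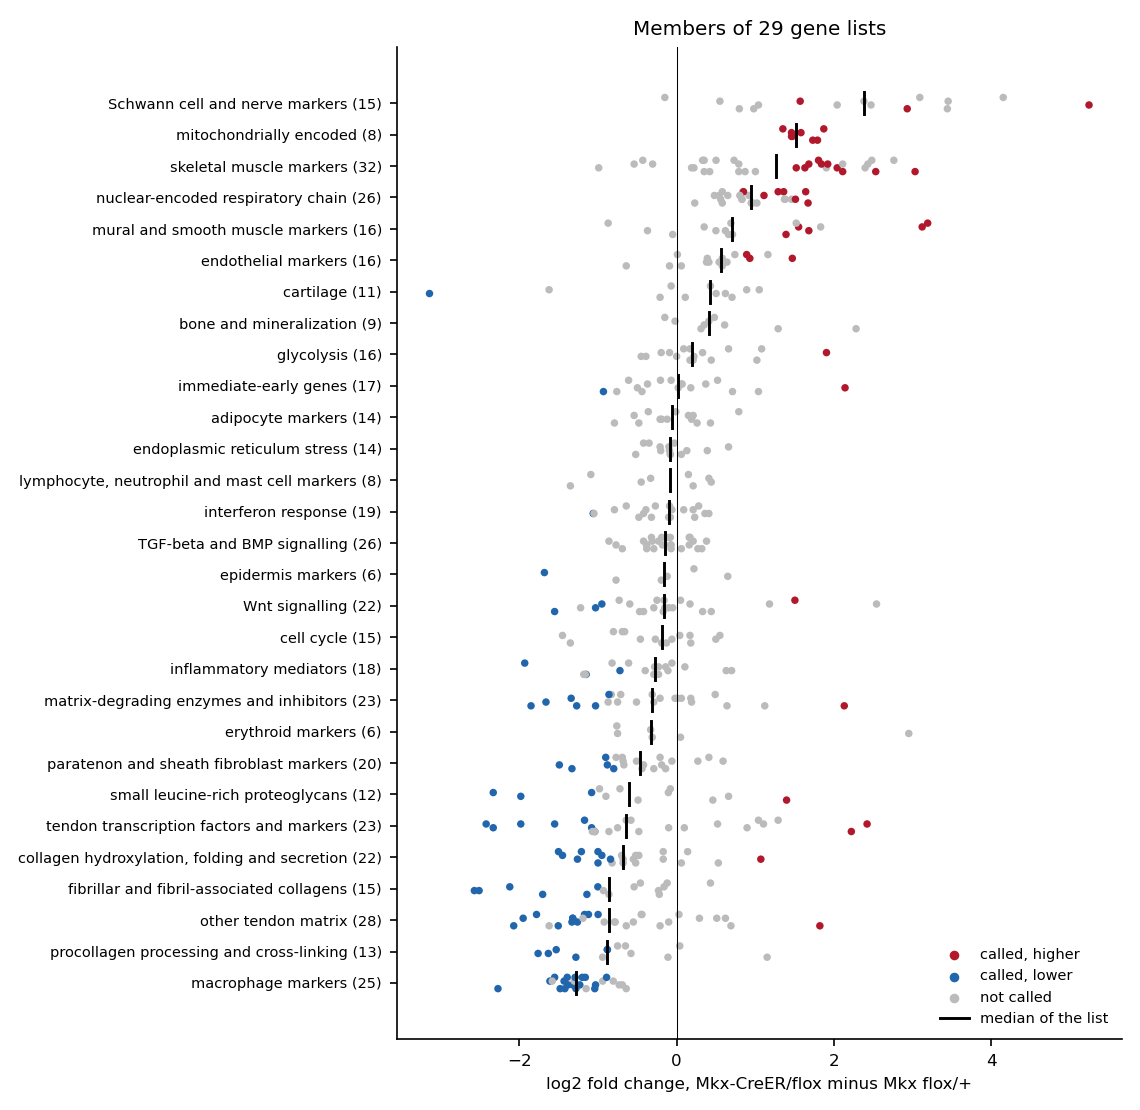
Each point is a tested member of 1 of 29 gene lists, placed by its log2 fold change (knockout minus control) and coloured by its call, with the list median as a black bar and the number tested in brackets. Matrix lists and macrophage markers lie to the left, with macrophage markers at a median of -1.28, and muscle, mitochondrial and Schwann cell lists to the right.

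Most macrophage marker transcripts fell. Of 25 marker genes, all tested, 17 were called lower and 0 higher, against 2.37% of all genes called lower. All 25 log2 fold changes were negative, with a median of -1.28, and in 20 the knockouts lay below every control, against 9.71% of all genes. The list took 0.0803, 0.108 and 0.112% against 0.212, 0.202, 0.318 and 0.214% of the counts. Control 3 was the highest and the other 3 controls lay close together, all above the knockouts.

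Fcgr3, a receptor for antibodies, measured 22.9, 22.05 and 24.4 CPM against 52.01, 54.2, 72.5 and 51.1 CPM (log2 fold change -1.32, SE 0.193, edgeR adjusted p = 0.00665). Tyrobp, a signalling adaptor of myeloid receptors, measured 19.9, 20.1 and 21.8 CPM against 51.6, 41.9, 63.7 and 43.9 CPM (log2 fold change -1.29, SE 0.202, edgeR adjusted p = 0.00862). Lyz2, the lysozyme of myeloid cells, measured 353, 370.3 and 336 CPM against 844, 698, 1204 and 927 CPM (log2 fold change -1.38, SE 0.227, edgeR adjusted p = 0.00998). Control 3 was the highest library for each of these 3 genes, and none overlapped. Csf1r, the receptor for the macrophage growth factor CSF1, measured 64.97, 102 and 137 CPM against 225, 262, 344 and 301 CPM (log2 fold change -1.48, SE 0.259, edgeR adjusted p = 0.0121), and 15.1% of its exons overlap a gene on the opposite strand. The complement genes C1qa, C1qb and C1qc fell, with log2 fold changes of -1.61, -1.55 and -1.42, as did the haemoglobin scavenger receptor Cd163 (-1.43) and Vsig4, a complement receptor of resident macrophages (-2.27). Timd4 (-0.69, adjusted p = 0.611), Lyve1 (-0.64, adjusted p = 0.246) and Cx3cr1 (-0.94, adjusted p = 0.188), which mark subsets of resident macrophages, were not called. Single omissions took away edgeR calls without knockout 1 for Cd163 (adjusted p = 0.0504) and without knockout 4 for Csf1r, C1qa, C1qb, C1qc, Cd163 and Vsig4 (adjusted p from 0.0502 to 0.0914). Calls also ended without control 1 for Cd163 and Vsig4 (adjusted p from 0.0524 to 0.0617), without control 2 for Cd163 (adjusted p = 0.06499) and without control 3 for C1qc, Cd163 and Vsig4 (adjusted p from 0.0525 to 0.0707). The test with 1 library fewer also called Cx3cr1 without knockout 1 (log2 fold change -1.68, adjusted p = 0.00504).

 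Across the omissions 3 to 17 of the 25 were called lower, and the list median lay between -1.34 and -1.07. In the muscle-adjusted fit 0 were called, at a median of -1.43. Markers of other blood cells were sparse: 14 of 22 genes for lymphocytes, neutrophils and mast cells had too few counts to be tested, among them Cd3e, Cd8a and Ms4a1, and 0 of the other 8 were called by edgeR (1 at an unadjusted p under 0.05, 0 called by DESeq2 and 1 by limma voom).

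Inflammatory mediators were called lower in 3 of 18 tested genes and higher in 0, against 2.37% and 3.45% of all genes. Pla2g5, a secreted phospholipase A2 that frees fatty acids for eicosanoids, measured 18.2, 17.2 and 25.1 CPM against 76.5, 73.04, 78.3 and 79.8 CPM (log2 fold change -1.93, SE 0.193, edgeR adjusted p = 0.00184). The 4 controls lay within a narrow band, with the knockouts far below it. It was called in every omission and in the muscle-adjusted fit (log2 fold change -1.96, adjusted p = 0.0425). C3, the central complement protein, measured 411, 564 and 477 CPM against 1042, 1071, 1418 and 775 CPM (log2 fold change -1.15, SE 0.245, edgeR adjusted p = 0.0231). Nfkbia, the inhibitor of NF-kappa-B that this pathway induces, fell by 0.72 (edgeR adjusted p = 0.0494). Il1b, Il6, Cxcl1, Cxcl2 and Il1rn had too few counts to be tested, and Ptgs2 (-0.28, adjusted p = 0.8001) and Ccl2 (-0.23, adjusted p = 0.791) were not called. Of 19 interferon-response genes, 1 was called, against 5.83% of all genes, so the list stood near the share of all genes. The called gene was Ifi27l2a, at 57.8, 61.005 and 46.1 CPM against 94.8, 95.9, 156 and 111 CPM (log2 fold change -1.06, SE 0.215, edgeR adjusted p = 0.0198). In fits lacking 1 library, edgeR calls ended without knockout 1 for Nfkbia (adjusted p = 0.0745) and without knockout 4 for C3, Nfkbia and Ifi27l2a (adjusted p from 0.0596 to 0.164). Calls were lost too without control 1 for C3 and Nfkbia (adjusted p from 0.0665 to 0.119), without control 2 for C3 and Nfkbia (adjusted p from 0.0596 to 0.0728), without control 3 for C3, Nfkbia and Ifi27l2a (adjusted p from 0.0568 to 0.1399) and without control 4 for Nfkbia (adjusted p = 0.0759).

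Some skeletal muscle transcripts rose in the knockout. Of 32 genes tested, 10 were called higher and 0 lower, against 3.45% of all genes called higher, with a median log2 fold change of 1.26. Tcap, a titin-binding protein of the Z-disc, measured 888, 1159 and 732 CPM against 145, 166, 284 and 383 CPM (log2 fold change 1.92, SE 0.326, edgeR adjusted p = 0.0108). Mb, myoglobin, the oxygen store of oxidative fibres, measured 1773, 1148 and 640.1 CPM against 179, 209, 88.2 and 348 CPM (log2 fold change 2.53, SE 0.439, edgeR adjusted p = 0.0131), with 31.9% of its exons overlapped by a gene on the opposite strand. Mybpc1, the slow-type myosin-binding protein C, measured 2756, 1126 and 873 CPM against 295, 258, 334 and 649.6 CPM (log2 fold change 2.04, SE 0.4197, edgeR adjusted p = 0.02095). Each of the 3 separated the genotypes, and knockout 1 was highest for Mb and Mybpc1 but not for Tcap. With 1 library left out, edgeR calls ended without knockout 1 for Mb (adjusted p = 0.0653). Among controls, omissions ended calls without control 1 for Mybpc1 (adjusted p = 0.0723), without control 2 for Mybpc1 (adjusted p = 0.0663) and without control 3 for Mybpc1 (adjusted p = 0.0712).

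Myl2, the light chain of slow and cardiac myosin, measured 3796, 1564 and 914 CPM against 238, 181, 51.98 and 551 CPM (log2 fold change 3.03, SE 0.716, edgeR adjusted p = 0.0401), with control 3 lowest and knockout 1 highest. The slow-fibre genes Myh7 (2.43, adjusted p = 0.0618), Tnnc1 (2.76, adjusted p = 0.06802), Tnnt1 (2.48, adjusted p = 0.0935) and Tnni1 (2.395, adjusted p = 0.125) had large positive log2 fold changes and were not called. Myh2, the myosin heavy chain of fast oxidative fibres, was called (2.11, adjusted p = 0.0234). Among genes of fast fibres, the log2 fold change was 0.79 for Tnni2, 0.79 for Tnnt3, 0.73 for Myl1, 0.501 for Myh1, 0.35 for Atp2a1 and 0.35 for Tnnc2 (edgeR adjusted p from 0.378 to 0.801). The other 4 fast-fibre genes named here had negative values, with Myh4 at -0.99, Actn3 at -0.54, Pvalb at -0.43 and Mybpc2 at -0.305 (edgeR adjusted p from 0.752 to 0.891). The difference between the slow and fast genes was not tested. Myh4 measured 1591, 69.7 and 3258 CPM against 93.01, 476, 9291 and 3135 CPM. For Myh4, control 3 and 4 lay far above control 1 and 2. Calls by edgeR were lost without knockout 1 for Myl2 and Myh2 (adjusted p from 0.137 to 0.25996), without knockout 4 for Myl2 and Myh2 (adjusted p from 0.0868 to 0.0919) and without knockout 5 for Myl2 (adjusted p = 0.0606). On the control side, calls went without control 1 for Myl2 and Myh2 (adjusted p from 0.0779 to 0.0871), without control 2 for Myl2 and Myh2 (adjusted p from 0.0744 to 0.0813) and without control 3 for Myl2 and Myh2 (adjusted p = 0.05105). The threshold was reached by Myh7 without control 4 (log2 fold change 3.34, adjusted p = 0.00595), Tnnc1 without control 4 (log2 fold change 3.49, adjusted p = 0.0177), Tnnt1 without control 4 (log2 fold change 3.31, adjusted p = 0.0179) and Tnni1 without control 4 (log2 fold change 3.46, adjusted p = 0.0138). From 2 to 16 of the 32 were called higher over the omissions.

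Part of the respiratory chain transcripts rose as well. All 8 mitochondrially encoded genes tested were called higher, against 3.45% of all genes, with a median log2 fold change of 1.52. mt-Nd2, a subunit of complex I, measured 6495, 3342 and 2272 CPM against 1306, 879, 1166 and 1053 CPM (log2 fold change 1.87, SE 0.333, edgeR adjusted p = 0.0126). mt-Co1, the catalytic subunit of cytochrome oxidase, measured 34570.4, 16128 and 12218 CPM against 6567, 6235, 5379 and 7058 CPM (log2 fold change 1.73, SE 0.354, edgeR adjusted p = 0.0198). Knockout 1 was the highest and knockout 5 the lowest of the knockouts for both, and controls differed little. mt-Nd4 had a log2 fold change of 1.47, and of 0.95 without knockout 1. Of 26 nuclear-encoded subunits 7 were called higher, against 3.45% of all genes, and 0 lower. All 26 values were positive (median 0.94). Omission of 1 library ended edgeR calls without knockout 4 for mt-Nd4 (adjusted p = 0.0508). Control omissions ended calls without control 1 for mt-Co1 and mt-Nd4 (adjusted p from 0.0712 to 0.0787), without control 2 for mt-Co1 and mt-Nd4 (adjusted p from 0.06499 to 0.0744) and without control 3 for mt-Co1 and mt-Nd4 (adjusted p from 0.0731 to 0.0793).

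Among these, Cox7a1 and Cox8b, the muscle forms of 2 cytochrome oxidase subunits, measured 206, 105 and 70.8 CPM against 29.1, 31.8, 39.5 and 59.8 CPM and 269, 144 and 112 CPM against 38.7, 47.1, 69.96 and 89.997 CPM (log2 fold changes 1.67 and 1.51, edgeR adjusted p = 0.0233 and 0.0255). Cycs, cytochrome c, rose by 1.36 and Ndufs1, a complex I subunit, by 1.29, the latter at 0.77 without knockout 1. The edgeR call did not hold without knockout 1 for Cox8b, Cycs and Ndufs1 (adjusted p from 0.0666 to 0.0745) and without knockout 4 for Cox7a1, Cox8b, Cycs and Ndufs1 (adjusted p from 0.0604 to 0.0872). Omission of a control ended calls without control 1 for Cox7a1, Cox8b, Cycs and Ndufs1 (adjusted p from 0.06997 to 0.0995), without control 2 for Cox7a1, Cox8b, Cycs and Ndufs1 (adjusted p from 0.0684 to 0.107) and without control 3 for Cox7a1, Cox8b, Cycs and Ndufs1 (adjusted p from 0.0685 to 0.115). From 1 to 8 of the 8 mitochondrially encoded genes and 0 to 19 of the 26 nuclear-encoded ones were called higher over the omissions. In the muscle-adjusted fit 0 of either set were called, at medians of 1.14 and 0.25. Of 16 glycolysis genes 1 was called, against 5.83% of all genes. This was the hexokinase Hk2, at 258, 181 and 126 CPM against 49.6, 32.9, 56.6 and 62.2 CPM (log2 fold change 1.904, SE 0.267, edgeR adjusted p = 0.00566), and it was called in every omission.

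**Figure D4:**
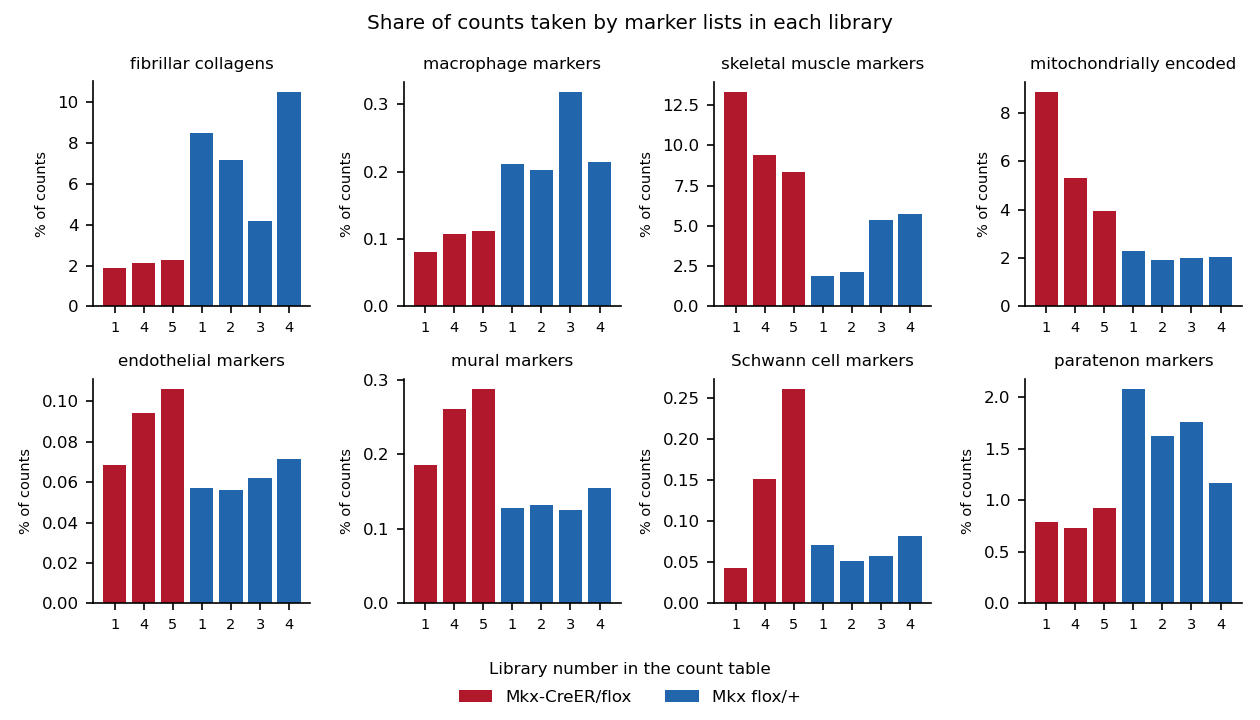
Bars give the share of counts (percent, axis from 0) that the genes of 8 lists took in each library, knockout in red and control in blue, with the library number under each bar. The fibrillar collagen share is 1.89 to 2.27% in the knockouts and 4.21 to 10.5% in the controls, and the Schwann cell share is high in knockout 4 and 5 only.

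Some vessel-wall markers were higher. Of 16 endothelial markers 3 were called higher, against 3.45% of all genes, and 0 lower, with a median log2 fold change of 0.56. The VEGF receptors Flt1 and Kdr measured 80.1, 72.3 and 68.3 CPM against 37.5, 30.8, 40.2 and 46.4 CPM and 107, 72.2 and 71.8 CPM against 41.8, 46.4, 41.3 and 50.8 CPM (log2 fold changes 0.93 and 0.89, edgeR adjusted p = 0.0188 and 0.0234). Prox1, a transcription factor of lymphatic endothelium, measured 49.3, 29.1 and 25.7 CPM against 9.004, 14.2, 10.1 and 16.9 CPM (log2 fold change 1.47, SE 0.2904, edgeR adjusted p = 0.0191). All 3 separated the genotypes, whereas the general endothelial markers Pecam1 (0.54, adjusted p = 0.164) and Cdh5 (0.58, adjusted p = 0.0796) were not called. Flt1, Kdr and Prox1 were highest in knockout 1 and, among controls, in control 4, as was the muscle share. Which cells made these transcripts was not tested. Of 16 mural and smooth muscle markers 5 were called higher, against 3.45% of all genes, and 0 lower. Rgs5, a pericyte marker, measured 643, 402 and 385 CPM against 180.2, 136, 132 and 202 CPM (log2 fold change 1.55, SE 0.237, edgeR adjusted p = 0.00775), and Abcc9, a subunit of ATP-sensitive potassium channels in pericytes and muscle, 226, 132 and 114 CPM against 49.4, 42.95, 60.5 and 87.6 CPM (log2 fold change 1.39, SE 0.283, edgeR adjusted p = 0.0198). Single omissions took away edgeR calls without knockout 4 for Flt1, Kdr and Abcc9 (adjusted p from 0.0517 to 0.0687). Calls also ended without control 1 for Flt1, Kdr, Prox1 and Abcc9 (adjusted p from 0.0617 to 0.0763), without control 2 for Flt1, Kdr, Prox1 and Abcc9 (adjusted p from 0.0506 to 0.0631) and without control 3 for Flt1, Kdr, Prox1 and Abcc9 (adjusted p from 0.05702 to 0.0766). In omissions, edgeR newly called Pecam1 without knockout 1 (log2 fold change 0.72, adjusted p = 0.0379).

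Des, the intermediate filament desmin, which skeletal muscle also makes and which stands on both lists, measured 804, 778 and 657 CPM against 129, 141, 268 and 390.1 CPM (log2 fold change 1.68, SE 0.344, edgeR adjusted p = 0.0198). The smooth muscle contractile gene Cnn1, calponin, measured 0.623, 5.62 and 12.4 CPM against 0.862, 0.783, 0.336 and 0.827 CPM (log2 fold change 3.19, SE 0.763, edgeR adjusted p = 0.0339). Here knockout 1 lay within the control range, so the call rests on knockout 4 and 5. Pdgfrb, another pericyte marker, had a log2 fold change of -0.37 (adjusted p = 0.344). In fits lacking 1 library, edgeR calls ended without knockout 1 for Des (adjusted p = 0.0792), without knockout 4 for Des and Cnn1 (adjusted p from 0.0676 to 0.0853) and without knockout 5 for Cnn1 (adjusted p = 0.102). Calls were lost too without control 1 for Des and Cnn1 (adjusted p from 0.0616 to 0.0884), without control 2 for Des and Cnn1 (adjusted p from 0.0607 to 0.0883), without control 3 for Des and Cnn1 (adjusted p from 0.0625 to 0.108) and without control 4 for Cnn1 (adjusted p = 0.0684). Over the omissions 0 to 4 of the endothelial and 1 to 8 of the mural markers were called higher, with 8 mural markers without knockout 1. In the muscle-adjusted fit 0 members of either list were called, at medians of 0.38 and 0.85.

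Nerve-sheath transcripts were unevenly spread among the knockouts. The 18 genes of the Schwann cell and nerve list took 0.0429, 0.151 and 0.2603% against 0.0714, 0.0512, 0.0582 and 0.0822% of the counts. By this share knockout 1 was the lowest of all 7 libraries and knockout 5 the highest. In summed CPM control 2 (497) lay just under knockout 1 (503). Of 15 tested, 3 were called higher, against 3.45% of all genes. The median log2 fold change was 2.38 (2.92 without knockout 1 and 1.52 without knockout 5). The number called higher was 8 without knockout 1, ran from 1 to 8 over the omissions and was 0 in the muscle-adjusted fit (median 2.56). Cdh19, a cadherin of Schwann cells and their precursors, measured 5.34, 15.5 and 30.9 CPM against 2.11, 2.01, 2.24 and 2.72 CPM (log2 fold change 2.93, SE 0.481, edgeR adjusted p = 0.00998) and was above all controls in each knockout. Sorcs1, a sorting receptor of neurons, measured 1.07, 7.12 and 21.5 CPM against 0.287, 0, 0.112 and 0.709 CPM (log2 fold change 5.24, SE 1.02, edgeR adjusted p = 0.0198). Its controls lay near the value of 3 counts, so the size of the fold is loosely set. Erbb3, the neuregulin receptor of Schwann cells, measured 7.65, 19.2 and 31.2 CPM against 3.93, 6.93, 8.63 and 6.38 CPM (log2 fold change 1.57, SE 0.413, edgeR adjusted p = 0.0476), with knockout 1 inside the control range. The myelin genes Mbp (2.47, adjusted p = 0.1196) and Mag (3.44, adjusted p = 0.113) were not called. With 1 library left out, edgeR calls ended without knockout 4 for Sorcs1 and Erbb3 (adjusted p from 0.0533 to 0.121) and without knockout 5 for Erbb3 (adjusted p = 0.128). Among controls, omissions ended calls without control 1 for Sorcs1 and Erbb3 (adjusted p from 0.0565 to 0.123), without control 2 for Sorcs1 and Erbb3 (adjusted p from 0.0516 to 0.109), without control 3 for Sorcs1 and Erbb3 (adjusted p from 0.06105 to 0.0841) and without control 4 for Erbb3 (adjusted p = 0.0971). A call appeared for Mbp without knockout 1 (log2 fold change 3.01, adjusted p = 0.0357) and Mag without knockout 1 (log2 fold change 4.01, adjusted p = 0.0415).

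Markers of the loose sheath around the tendon were called lower in 5 of 20 genes and higher in 0. Over all genes tested 2.37% were called lower. Igfbp6, which binds insulin-like growth factors, measured 132, 175 and 296 CPM against 507, 527, 642 and 589 CPM (log2 fold change -1.49, SE 0.2704, edgeR adjusted p = 0.0136). Plpp3, a lipid phosphatase (-0.901, adjusted p = 0.02196), Ly6c1, a surface antigen of fibroblasts and vessels (-0.799, adjusted p = 0.0272), Pcolce2, a procollagen-processing enhancer (-0.88, adjusted p = 0.0324), and Prg4 (-1.33, adjusted p = 0.0439) fell with it, while Pi16 (-0.68, adjusted p = 0.341) and Dpp4 (-0.67, adjusted p = 0.197), markers of universal fibroblasts, were not called. Pcolce2 and Prg4 also stand on matrix lists given above. The sheath list took 0.793, 0.732 and 0.924% against 2.08, 1.63, 1.76 and 1.17% of the counts. Of 14 adipocyte markers 0 were called by edgeR (2 at an unadjusted p under 0.05, 0 called by DESeq2 and 0 by limma voom), with Adipoq, adiponectin, at a log2 fold change of -0.19, and Lpl, lipoprotein lipase, at 1114, 1104 and 418 CPM against 493, 331, 536 and 675 CPM (log2 fold change 0.79, SE 0.337, edgeR adjusted p = 0.199). Of 6 erythroid genes 0 were called by edgeR (3 at an unadjusted p under 0.05, 1 called by DESeq2 and 1 by limma voom), and the 4 globin genes lay between -0.76 and -0.31 (log2 fold changes). The basal keratin genes Krt5 and Krt14 had 0 counts in all 7 libraries, which allows up to 0.145 to 0.354 CPM. Of 6 epidermis genes tested 1 was called, against 5.83% of all genes. This was Krtdap, at 4.45, 4.51 and 3.35 CPM against 15.04, 7.27, 20.3 and 9.68 CPM (log2 fold change -1.68, SE 0.368, edgeR adjusted p = 0.0245). Calls by edgeR were lost without knockout 4 for Igfbp6, Plpp3, Ly6c1, Pcolce2, Prg4 and Krtdap (adjusted p from 0.0619 to 0.148) and without knockout 5 for Prg4 (adjusted p = 0.0701). On the control side, calls went without control 1 for Plpp3, Ly6c1, Pcolce2, Prg4 and Krtdap (adjusted p from 0.0565 to 0.1297), without control 2 for Plpp3, Pcolce2 and Prg4 (adjusted p from 0.0595 to 0.0947), without control 3 for Plpp3, Ly6c1, Pcolce2, Prg4 and Krtdap (adjusted p from 0.0625 to 0.114) and without control 4 for Ly6c1 (adjusted p = 0.0586). Calls were gained for Dpp4 without knockout 1 (log2 fold change -1.09, adjusted p = 0.0185) and Lpl without knockout 5 (log2 fold change 1.13, adjusted p = 0.02697).

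Among genes of short-term cell states, 2 immediate-early genes were called, against 5.83% of all genes. Of 17 immediate-early genes, Egr3 was called higher (4.89, 3.49 and 2.55 CPM against 0.575, 0.447, 1.23 and 0.945 CPM, log2 fold change 2.14, SE 0.489, edgeR adjusted p = 0.0289) and Klf4, a Krüppel-like transcription factor, lower (79.9, 43.4 and 65.8 CPM against 127, 146, 96.1 and 111 CPM, log2 fold change -0.93, SE 0.231, edgeR adjusted p = 0.0379), while Fos (0.37, adjusted p = 0.622) and Jun (0.07, adjusted p = 0.919) were not called. Of 15 cell-cycle genes 0 were called by edgeR (1 at an unadjusted p under 0.05, 0 called by DESeq2 and 3 by limma voom), with Mki67 at a log2 fold change of -0.66 and the smallest p for Ccnb2, cyclin B2 (-1.35, adjusted p = 0.212). Of 14 endoplasmic reticulum stress genes 0 were called by edgeR (1 at an unadjusted p under 0.05, 0 called by DESeq2 and 2 by limma voom), with Hspa5, the chaperone BiP, at 0.13 and the smallest p for Asns, asparagine synthetase (-0.52, adjusted p = 0.196). Omission of 1 library ended edgeR calls without knockout 1 for Egr3 (adjusted p = 0.0701) and without knockout 4 for Egr3 and Klf4 (adjusted p from 0.0917 to 0.137). Control omissions ended calls without control 1 for Egr3 and Klf4 (adjusted p from 0.0838 to 0.103), without control 2 for Egr3 and Klf4 (adjusted p from 0.0714 to 0.101), without control 3 for Egr3 and Klf4 (adjusted p from 0.0509 to 0.0659) and without control 4 for Klf4 (adjusted p = 0.0628).

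The 12 largest rises, among called genes of average log2 CPM 1 or more without overlap of the genotypes, included the muscle genes Csrp3, Myl2, Myoz2 and Trim72. Bdh1, an enzyme of ketone-body use, measured 37.6, 37.99 and 34.5 CPM against 1.82, 3.58, 0.168 and 6.496 CPM (log2 fold change 3.69, SE 0.698, edgeR adjusted p = 0.0198). Csrp3, a LIM protein of striated muscle, measured 566, 244 and 149.9 CPM against 32.7, 28.1, 9.47 and 86.2 CPM (log2 fold change 3.04, SE 0.695, edgeR adjusted p = 0.0392), and Myoz2, a Z-disc protein of slow fibres, 808, 330.4 and 159.9 CPM against 57.7, 55.9, 10.6 and 97.3 CPM (log2 fold change 2.97, SE 0.713, edgeR adjusted p = 0.0462). Control 3 was the lowest library for these 3 genes and control 4 the highest control. Trim72, a membrane-repair protein of muscle, measured 17.98, 16.8 and 14.1 CPM against 1.44, 1.79, 1.46 and 3.898 CPM (log2 fold change 2.96, SE 0.364, edgeR adjusted p = 0.00316). Of the exons of Bdh1 and Trim72, 13.7% and 27.6% overlap genes on the opposite strand. The edgeR call did not hold without knockout 1 for Bdh1, Csrp3 and Myoz2 (adjusted p from 0.0902 to 0.267), without knockout 4 for Bdh1, Csrp3 and Myoz2 (adjusted p from 0.0687 to 0.0907) and without knockout 5 for Bdh1, Csrp3 and Myoz2 (adjusted p from 0.0518 to 0.0662). Omission of a control ended calls without control 1 for Bdh1, Csrp3 and Myoz2 (adjusted p from 0.0562 to 0.0779) and without control 2 for Csrp3 and Myoz2 (adjusted p from 0.0691 to 0.0728).

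Sorcs1 rose most, and Kif1a, a motor of axonal transport, followed the same order among the knockouts, at 3.92, 16.4 and 34.5 CPM against 2.203, 1.57, 0.8402 and 3.43 CPM (log2 fold change 3.23, SE 0.662, edgeR adjusted p = 0.0234). Ces5a, a carboxylesterase, measured 11.3, 2.23 and 2.92 CPM against 0.383, 0.336, 0 and 0.591 CPM (log2 fold change 4.18, SE 0.847, edgeR adjusted p = 0.0198). The controls of Sorcs1 and Ces5a lay near the value of 3 counts, so the size and rank of these 2 folds are loosely set. Fam81a measured 6.85, 9.88 and 10.4 CPM against 0.383, 0.447, 1.01 and 0.709 CPM (log2 fold change 3.75, SE 0.404, edgeR adjusted p = 0.00305), with near-equal knockouts. Shisa3, a membrane protein known to damp Wnt and FGF receptors (3.06, adjusted p = 0.0119), Extl1, an exostosin-like glycosyltransferase (3.04, adjusted p = 0.00556), and Myo5b, a vesicle motor (3.01, adjusted p = 0.00862), complete the group with Myl2. Single omissions took away edgeR calls without knockout 4 for Kif1a (adjusted p = 0.0674). Calls also ended without control 1 for Kif1a and Ces5a (adjusted p from 0.0588 to 0.0617), without control 2 for Kif1a and Ces5a (adjusted p from 0.0613 to 0.0619) and without control 3 for Kif1a (adjusted p = 0.0632).

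The largest falls, chosen in the same way, held 5 matrix and tendon genes (Mkx, Col1a1, Col11a2, Kera and Cnmd). Klk1b21, a glandular kallikrein protease, measured 0.089000, 0.678 and 0.0729 CPM against 6.03, 7.16, 10.1 and 7.795 CPM (log2 fold change -4.56, SE 0.607, edgeR adjusted p = 0.00448), on 1, 14 and 1 counts in the knockouts. Klk1b24, a close relative, measured 0.534, 1.696 and 0.0729 CPM against 5.46, 4.81, 4.93 and 3.78 CPM (log2 fold change -2.53, SE 0.659, edgeR adjusted p = 0.0457), and its log2 fold change was -3.995 without knockout 4. Kallikrein genes of this cluster are near-identical copies, and how reads shared between them were counted was not given in the sources used here, so the value of each is uncertain. Il31ra, a subunit of the receptor for interleukin 31, measured 0.178, 0.485 and 0.729 CPM against 2.87, 6.15, 5.21 and 4.49 CPM (log2 fold change -3.28, SE 0.525, edgeR adjusted p = 0.00943). In fits lacking 1 library, edgeR calls ended without knockout 1 for Klk1b24 (adjusted p = 0.0835). Calls were lost too without control 1 for Klk1b24 (adjusted p = 0.114), without control 2 for Klk1b24 (adjusted p = 0.101), without control 3 for Klk1b24 (adjusted p = 0.109) and without control 4 for Klk1b24 (adjusted p = 0.0704).

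Gpha2, a glycoprotein hormone subunit, measured 2.14, 0.872 and 0.656 CPM against 15.9, 4.36, 4.99 and 9.21 CPM (log2 fold change -2.85, SE 0.574, edgeR adjusted p = 0.0197), with control 1 highest. Pgr, the progesterone receptor, measured 3.29, 0.921 and 0.437 CPM against 11.02, 10.5, 7.84 and 5.79 CPM (log2 fold change -2.55, SE 0.572, edgeR adjusted p = 0.0265), and Cpz, a secreted carboxypeptidase with a Wnt-binding domain, 2.31, 4.603 and 5.47 CPM against 19.1, 16.1, 11.7 and 34.4 CPM (log2 fold change -2.28, SE 0.412, edgeR adjusted p = 0.0136). Phyhip measured 1.42, 1.07 and 0.5102 CPM against 8.24, 4.59, 3.36 and 8.74 CPM (log2 fold change -2.63, SE 0.498, edgeR adjusted p = 0.0164). All of these fell without overlap. For Gpha2, Pgr and Phyhip the levels were low enough that 3 counts are worth a sizeable part of the lowest knockout value. With 1 library left out, edgeR calls ended without knockout 4 for Gpha2, Pgr, Cpz and Phyhip (adjusted p from 0.0508 to 0.104). Among controls, omissions ended calls without control 1 for Gpha2, Pgr and Phyhip (adjusted p from 0.0573 to 0.0796), without control 2 for Pgr (adjusted p = 0.0735) and without control 3 for Pgr (adjusted p = 0.0685).

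**Figure D5:**
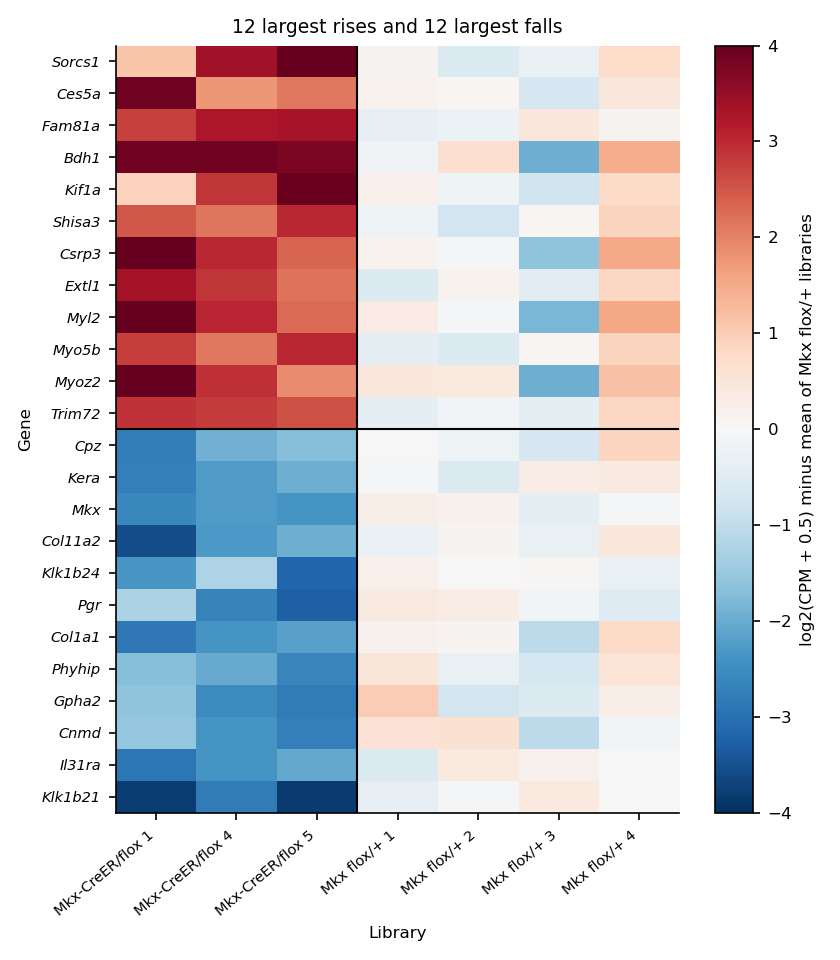
Colours give log2(CPM + 0.5) in each library minus the mean of the controls, limited to the range from -4 to 4, for the 12 largest rises (top) and 12 largest falls (bottom). Knockout 1 is the strongest column for muscle genes such as Csrp3 and Myl2 and the weakest for Sorcs1 and Kif1a.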

How the data were processed

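Achilles tendon RNA was measured by RamDA-seq in 3 Mkx-CreER/flox and 4 Mkx flox/+ libraries. Values are the authors' raw read counts for 32285 Ensembl genes, as deposited in 1 table. Reads were trimmed with fastp and aligned with STAR to mm10, per the submitters' processing notes. Versions, counting tool, annotation, strand setting and handling of multi-mapping reads were not given in the sources used here. Mkx-CreER/flox columns (1, 4 and 5) were matched to samples by genotype only. Columns of per-sample values that matched no sample numbered 0. Identifiers were given symbols and positions from GENCODE vM21 (32235 paired with a symbol, 50 without), and of rows that share a symbol the most abundant was used.

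The test was edgeR 4.0.16 in R 4.3.3. After filterByExpr (grouped by genotype) and TMM scaling, a robust quasi-likelihood model was fitted to these 7 libraries alone. A gene is called when its p, adjusted by Benjamini-Hochberg over all genes, is under 0.05, and CPM values are TMM-scaled. Within a genotype, any 2 libraries differed far beyond counting error (chi-square per degree of freedom from 21.7 to 108), so none was a repeat deposit. The method was tested on simulated data.

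The 29 gene lists and the genes to name were chosen with earlier results of these data known, and lists carry no test. The rule named Mkx, the 12 largest rises and 12 largest falls that were called, had no overlap of the genotypes and an average log2 CPM of 1 or more, up to 4 called members per list by smallest p (or the 1 of smallest p), and 13 genes fixed by name (Scx, Tnmd, Col1a1, Col1a2, Col3a1, Kera, Fmod, Dcn, Aspn, Postn, Lyz2, Mb and Cdh19). Other list members are given as values, and genes outside it were named after their values were seen. Predicted gene models, genes on the Y chromosome and Xist were left out of the naming. Promoter windows are those of RefSeq (GRCm38.p6). Kera and Fmod were added to the type I collagen promoters after values were seen, and Col1a1 is named only. Alternatives were all 10 libraries in 1 fit, DESeq2 1.42.0, limma 3.58.1 voom with quality weights, scaling by RLE or by the upper quartile, dropping the filter, requiring 1 CPM in at least 3 libraries, taking out the erythroid, muscle and mitochondrial genes, a covariate of the muscle list's mean log2 CPM (the muscle-adjusted fit), and each library left out in turn.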

Additional observations from a re-analysis of the deposited data

Results flagged for a closer look

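In the 4 control libraries, 3 of the 98 genes named by the rule had 1 library far from the other 3. The criterion was Dixon's gap, which flags about 1 in 20 groups by chance, so 3 of 98 is no more than chance would give. Trim72, the membrane-repair gene of muscle, stood at 3.90 CPM in control 4 against 1.44 to 1.79 CPM in the other controls. Control 4 also had the highest muscle share of the controls. Fcgr3, the antibody receptor of macrophages, stood at 72.5 CPM in control 3 against 51.1 to 54.2 CPM, and control 3 had the highest macrophage share. Cnn1, calponin of smooth muscle, stood at 0.336 CPM in control 3 against 0.783 to 0.862 CPM, all close to the value of a few counts. The knockouts of Trim72 and Fcgr3 lay outside the control range with that library included, and those of Cnn1 overlapped it.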

How the results depend on the processing

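No paired analysis was possible because the knockout columns carry the numbers 1, 4 and 5, which are not the replicate numbers of the labels. Against 901 genes called by edgeR, DESeq2 called 1671 (960 higher, 900 shared), limma voom with quality weights 2622 (1275 higher, 898 shared), and the muscle-adjusted fit 14 (2 higher, 13 shared). The 14th gene there, Actc1, was named after its values were seen and lay between 2.97 and 115 CPM in the controls. Leaving out 1 library gave 217 to 1269 called genes. The number was 217 to 294 without knockout 4, control 1, control 2 or control 3 and 773 without control 4, and the cause was not tested. The other alternatives gave 869 to 1165 called genes, of which 822 to 887 were among the 901. Upper-quartile scaling moved the median log2 fold change of all genes to -0.05. Of the genes named by the rule, Col3a1 alone reversed direction, from -0.22 to 0.05 in log2 terms without control 4 (-0.39 to 0.05 over the omissions), and it was not called there or in the full set. The medians of 7 lists, which lay between -0.32 and 0.19, changed sign in at least 1 alternative. Mkx was called in each alternative, with log2 fold changes from -2.53 to -2.12. With 3 and 4 libraries, folds of genes near 1 CPM are loosely set, and muscle share and genotype move together.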

Other observations

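The genes in this section were named after their values were seen. The largest gap outside the rule was in a kallikrein: Klk1 measured 27.9, 0.6299 and 0.437 CPM against 391, 344, 400.05 and 241 CPM. All knockouts lay far below all controls, knockout 1 less so than knockout 4 and 5, and the gene missed the threshold (log2 fold change -5.201, SE 1.29, edgeR adjusted p = 0.0519). It belongs to the same family of near-identical proteases as Klk1b21 and Klk1b24, so the counts of each are uncertain. Alongside Pgr, the progesterone receptor, Greb1, a target of the oestrogen receptor, measured 0.267, 0.388 and 0.219 CPM against 1.25, 1.902, 3.305 and 1.77 CPM (log2 fold change -2.76, SE 0.605, edgeR adjusted p = 0.0244), on few counts in the knockouts. Calls by edgeR were lost without knockout 4 for Greb1 (adjusted p = 0.07701) and without knockout 5 for Greb1 (adjusted p = 0.0528). On the control side, calls went without control 2 for Greb1 (adjusted p = 0.0568) and without control 3 for Greb1 (adjusted p = 0.0735). The test with 1 library fewer also called Klk1 without knockout 1 (log2 fold change -9.27, adjusted p = 6.53e-08).

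Several genes outside the lists rose, some of them muscle genes. Xirp2, an actin-binding protein of muscle attachment sites, measured 3822, 2348 and 2390.3 CPM against 355, 356, 514 and 716 CPM (log2 fold change 2.56, SE 0.307, edgeR adjusted p = 0.003097). Ankrd1, a titin-binding repeat protein induced by strain, measured 43.97, 52.5 and 49.9 CPM against 12.3, 12.1, 5.43 and 11.6 CPM (log2 fold change 2.25, SE 0.272, edgeR adjusted p = 0.003097). Both were called in every omission, and knockout 1 did not stand apart from knockout 4 and 5 in Ankrd1. Scn4b, a sodium channel subunit (log2 fold change 1.92, SE 0.296, edgeR adjusted p = 0.00801), Esrrg, a nuclear receptor of oxidative metabolism (log2 fold change 2.54, SE 0.414, edgeR adjusted p = 0.0111), and Tfrc, the transferrin receptor (log2 fold change 2.26, SE 0.392, edgeR adjusted p = 0.0141), rose too and were highest in knockout 1. Ttc9 measured 34.8, 31.1 and 27.7 CPM against 6.51, 5.37, 5.88 and 7.09 CPM with near-equal values within each genotype (log2 fold change 2.33, SE 0.211, edgeR adjusted p = 0.00133), and Mapt, which encodes the microtubule protein tau, 82.9, 49.4 and 48.3 CPM against 6.705, 12.6, 10.03 and 13.8 CPM (log2 fold change 2.48, SE 0.282, edgeR adjusted p = 0.003097).

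Among falls outside the lists, 4 genes are given. Thy1, a surface glycoprotein of fibroblasts, measured 42.5, 39.9 and 49.7 CPM against 149.6, 117, 164 and 198 CPM (log2 fold change -1.84, SE 0.209, edgeR adjusted p = 0.003097), Aebp1, a collagen-binding secreted protein, 100.3, 132 and 154 CPM against 412, 427, 454 and 415 CPM (log2 fold change -1.73, SE 0.198, edgeR adjusted p = 0.003097), and Serpinf1, a secreted serpin, 1693, 1018 and 1370.03 CPM against 4203, 4571, 4493 and 4376 CPM (log2 fold change -1.697, SE 0.252, edgeR adjusted p = 0.00713). Thy1 was also called in the muscle-adjusted fit (log2 fold change -2.14, edgeR adjusted p = 0.0281). Slc7a11, the cystine transporter, measured 2.22, 2.47 and 1.82 CPM against 10.6, 9.396, 5.49 and 12.9 CPM (log2 fold change -2.13, SE 0.359, edgeR adjusted p = 0.0108). These 4 genes were called in every omission.

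Some innate immune genes outside the macrophage list were lower too. Ncf1 measured 4.98, 7.898 and 5.47 CPM against 14.7, 17.4, 29.2 and 14.9 CPM (log2 fold change -1.63, SE 0.314, edgeR adjusted p = 0.0173), and the other NADPH oxidase subunits Cybb and Cyba had log2 fold changes of -0.84 and -1.03 (edgeR adjusted p = 0.0369 and 0.0323). The toll-like receptor genes Tlr2, Tlr7 and Tlr8 fell as well, with log2 fold changes of -0.82, -1.31 and -1.498 (adjusted p = 0.0234, 0.0231 and 0.02999). Of the exons of Ncf1, 11.1% overlap a gene on the opposite strand. Next to Pla2g5, the eicosanoid enzymes Ptgis, prostacyclin synthase (log2 fold change -1.27, SE 0.219, edgeR adjusted p = 0.0111), and Alox5, a lipoxygenase (log2 fold change -1.38, SE 0.278, edgeR adjusted p = 0.0197), were lower. Omission of 1 library ended edgeR calls without knockout 1 for Cybb (adjusted p = 0.05298) and without knockout 4 for Cybb, Cyba, Tlr2, Tlr8, Ptgis and Alox5 (adjusted p from 0.0548 to 0.116). Control omissions ended calls without control 1 for Cybb, Cyba, Tlr2, Tlr7, Tlr8 and Alox5 (adjusted p from 0.0524 to 0.0818), without control 2 for Cybb, Cyba, Tlr2, Tlr7 and Tlr8 (adjusted p from 0.0561 to 0.0828), without control 3 for Cybb, Cyba, Tlr2, Tlr7, Tlr8 and Alox5 (adjusted p from 0.0647 to 0.1105) and without control 4 for Cybb and Cyba (adjusted p from 0.0523 to 0.0647).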
